A study of Homo sapiens with 12 samples.

Results

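MCF10A is an immortalised human mammary epithelial cell line, and its baseline transcriptome is described here from the 3 libraries that received control siRNA and the solvent DMSO. These are 3 of the 12 libraries of the series, chosen by their labels alone, and form 1 of its 4 groups. The labels give the genotype as WT. Cells received 22 nM control siRNA, then DMSO 48 h later for 6 h, and no XMU-MP1, the MST1/2 kinase inhibitor that other groups received. The series as a whole concerns the Hippo pathway and deltaNp63, a transcript form of TP63. The 3 libraries carry the letters a, b and c, and the labels do not say whether these are separate cultures, so every SD measures the spread between these samples, which may be technical. The cells are a model with limits that all groups share: a long-established line grown on plastic in horse serum, insulin, hydrocortisone and epidermal growth factor, and transfected with a lipid reagent.

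The mammary gland is lined by an inner luminal layer, which makes milk, and an outer basal layer, which rests on the basement membrane. Basal cells are known for keratins 5 and 14, the transcription factor p63 and hemidesmosomes, and their contractile form, the myoepithelial cell, carries smooth muscle proteins. Luminal cells are known for keratins 8, 18 and 19, and part of them for the oestrogen and progesterone receptors.

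Levels are given as FPKM (fragments per kilobase), a measure corrected for transcript length and library depth, in the order of libraries a, b and c. Genes of different length can be compared by it only as far as the length used for each gene is right. A gene was called expressed where it reached an FPKM of 1 in all 3 libraries and silent where it had 0 counts in all 3. The libraries held 55975525, 67953633 and 62607442 counts, over 19340, 19252 and 19539 genes with a count. With a floor of 3 counts, the level that a listed 0 still allows was 0.0536, 0.0441 and 0.0479 CPM, or counts scaled to library size, and it covers counting error only. The table has 46931 entries, and of these 10688 were expressed (22.8%) and 24578 silent (52.4%). Of the 19400 protein-coding genes 9629 were expressed (49.6%) and 5266 silent (27.1%), and these are the shares against which the gene groups below are read. Across genes, Pearson's r of log2(FPKM + 1) between pairs of libraries was 0.990 to 0.992, where genes are not independent replicates. For the 7083 genes with a mean FPKM of at least 5 the median coefficient of variation was 9.64%, against 1.61% from counting alone.

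A listed 0 does not always mean that a transcript was missing. Of 7035 protein-coding genes that reached an FPKM of 5 in a library, 34 had 0 counts in another. HNRNPL, a splicing factor, stood at 43.4 FPKM in library a, at 0.0108 in b and at 0 counts in c. PRPF8, a core protein of the spliceosome, had 0, 17931 and 0 counts. The zeros fell on 18 of these genes in library a, 8 in b and 17 in c. Of the 34 genes, 0 are in the gene lists and families described below and 2 among the 928 genes annotated as transcription factors. Genes that fell to a low count other than 0 are outside this rule. SLC16A1 of the glycolysis list, with 5209, 6321 and 20 counts, is 1 of them, so the lists are not free of such drops. Among 228 members of 8 complexes that every cell uses 219 were expressed and 7 silent. Of the 7, PSMB8, PSMB9, PSMB11 and PSMA8 are proteasome subunits known from immune cells, thymus or testis and are not used by every cell. The other 3 were EIF3K of translation initiation, NDUFA3 of respiratory complex I and VARS1, the valyl-tRNA synthetase. TUBB, a major beta-tubulin, was also listed at 0 in all 3 libraries, and ACTN4, an actin crosslinker, had 0, 37 and 0 counts. Listed zeros were frequent in a few regions: 120 of 161 protein-coding genes were silent between positions 29000000 and 34000000 of chromosome 6. This is the region of the major histocompatibility complex, where TUBB, VARS1, PSMB8 and PSMB9 lie. For PSMB8 and PSMB9, lack of use by these cells and a listed zero of this kind cannot be told apart. The method by which the authors assigned reads to genes is not given in the sources used here, and its part in these zeros was not tested.

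The most abundant transcripts were those of metal binding, the actin cytoskeleton, glycolysis and translation, with a basal keratin among them. MT2A, a metallothionein that binds zinc and copper and is known to be induced by metals and glucocorticoids, stood at 4948, 6347 and 8655 FPKM and ranked first in the mean (6650 ± 1872, SD, n = 3). Library c was highest and library a lowest for MT2A. TMSB10, an actin-sequestering thymosin, stood at 5074, 5743 and 5734 FPKM and GAPDH, a glycolytic enzyme, at 4387, 4459 and 4850. ACTB, cytoplasmic actin, stood at 3528, 3448 and 4094 FPKM, and its level did not stand apart from that of EEF1A1, the elongation factor that brings tRNA to the ribosome, at 3511, 3967 and 3577. FTH1, the ferritin heavy chain that stores iron, followed at 2663, 3943 and 3640. The genes KRT5, TP63, YAP1 and MYC, which were given as markers of the cells, were expressed in 3 of 3 libraries. KRT5 was the 14th most abundant entry of the table and the 12th once ribosomal RNA was left out.

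**Figure D1:**
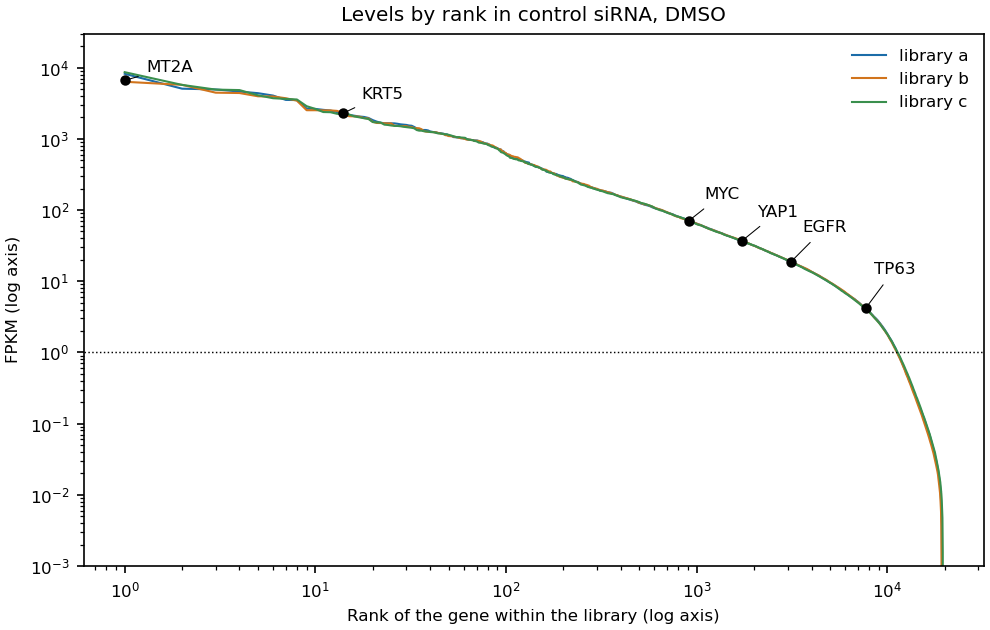
FPKM (log axis) against the rank of the gene in the library (log axis), 1 line per library, with the mean of 6 named genes as points and a dotted line at an FPKM of 1. The 3 lines nearly coincide, and the marker genes spread from KRT5 near 2294 FPKM to TP63 near 4.17.

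The plot of level by rank shows how few genes carry most of the signal. The 10 most abundant entries held 10.4 ± 0.481% of the summed FPKM, the top 100 held 36.0 ± 0.261% and the top 1000 held 69.9 ± 0.150% (SD, n = 3). Of the 10688 expressed entries 4470 reached 10 FPKM in every library, 579 reached 100 and 53 reached 1000. Ribosomal protein genes alone took 16.4 ± 0.381% of the summed FPKM, with 83 of 88 expressed and a median of 604 FPKM. RPS2 led them at 4060, 3724 and 3728 FPKM, ahead of RPL8 (mean 2595), RPLP0 (2431) and RPL13A (2401). Many of these genes have processed pseudogenes that could share reads with them, so their levels are uncertain to that extent. Their transcripts are short, and as a share of counts, which are not scaled by length, the same genes took 8.03%.

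Other abundant groups were those of energy, protein folding and the cytoskeleton. Of 18 glycolysis genes 17 were expressed (94.4%, against 49.6% of all protein-coding genes), with a median of 129 FPKM. Among them were ENO1, enolase (1195 FPKM), PKM, pyruvate kinase (1016), and LDHA, lactate dehydrogenase (726). The exception in the list was SLC16A1, a lactate transporter, with 19.8, 19.7 and 0.0669 FPKM. It was low in library c alone, so its value there falls under the limit on zeros given above. All 14 chaperones were expressed, with HSPA8, the constitutive heat shock protein, at 1057, 1416 and 1704 FPKM. The stress-induced HSPA1A stood at 1.64 and HSPA1B, a near-identical copy in which reads can be split, at 7.08. Both lie in the chromosome 6 region of many listed zeros, so their levels fall under the limit given above. Of 16 translation factors 15 were expressed, and the silent one was EEF1A2, the form known from muscle and neurons. GSTP1, a glutathione transferase, led the 21 antioxidant genes at 1657, 1649 and 1569 FPKM. SAA1, an acute phase apolipoprotein, stood at 1182, 1528 and 1586 FPKM, and IFITM3, an interferon-inducible membrane protein, at 1571, 1471 and 1507.

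Keratins mark the kind of epithelium, and these cells held basal, simple and hair-type keratins side by side. Of 55 keratin genes 15 were expressed (27.3%, against 49.6% of all protein-coding genes) and 28 were silent. KRT5, the basal type II keratin (gene 3852, chromosome 12, 52514575 to 52520394, minus strand, as the table gives it on GRCh38.p13), stood at 2119, 2512 and 2251 FPKM (2294 ± 200.02). Its usual type I partner KRT14 stood at 31.1, 45.8 and 23.1, below KRT17 at 561, 554 and 402 and below KRT15 at 217, 185 and 70.2. So the type I keratins of the basal list ranked KRT17, KRT15, KRT14, and only libraries a and b held KRT15 above 100 FPKM.

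The simple keratins of luminal cells were abundant too. KRT18 stood at 1404, 1292 and 1242 FPKM, KRT7 at 863, 864 and 1092 and KRT8 at 983, 937 and 873, so that KRT7 and KRT8 did not differ beyond their spread. KRT19, another luminal keratin, stood at 0.854, 0.468 and 0.117 FPKM and was below 1 in every library. KRT6A, a keratin of activated keratinocytes, stood at 499.8, 670.4 and 716 FPKM. KRT81, a hair keratin, stood at 1469.6, 675 and 524, with library a far above the others. KRT6A, KRT6B and KRT6C are close paralogs, as are KRT81 and KRT86, so the split of reads within each set is uncertain. KRT1 and KRT2, keratins of the upper epidermis, were silent, and KRT10, the partner of KRT1, stood at 8.22 ± 1.42.

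**Figure D2:**
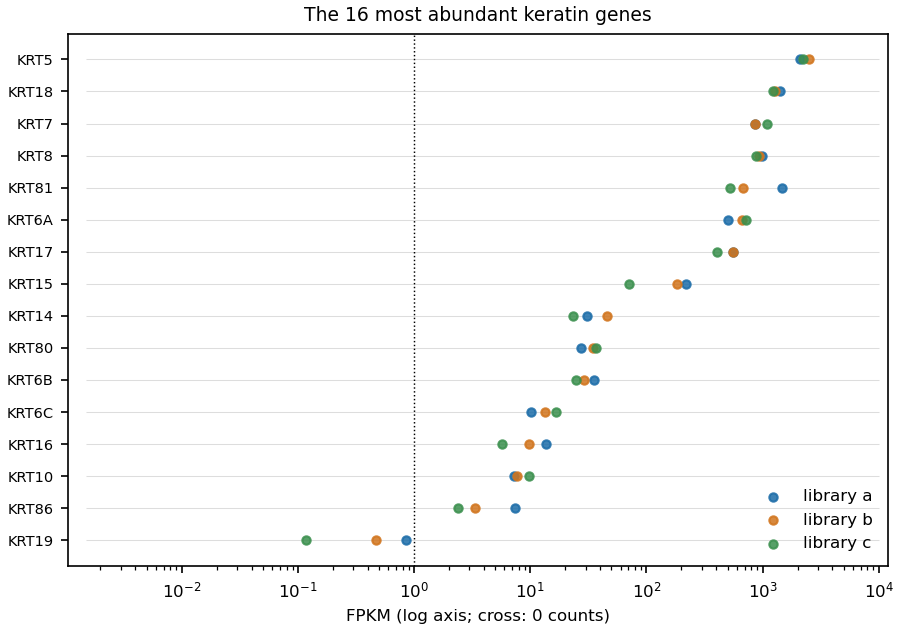
FPKM (log axis) of the 16 most abundant keratin genes, 1 point per library, with a dotted line at 1 FPKM. KRT5 lies near 2294, KRT18, KRT7 and KRT8 lie between 863 and 1404, and KRT14 lies near 33.3, while KRT81 and KRT15 show the widest spread between libraries among the 8 most abundant.

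By level, the basal list was nearly complete. Of 23 basal mammary genes 22 were expressed (95.7%, against 49.6% of all protein-coding genes). The median of the list was 48.2 FPKM, against 1.27 for all protein-coding genes. Its members were chosen with earlier results of these data known. The list holds hemidesmosome and laminin-332 genes, of which 8 of 8 were expressed. LAMB3, a chain of laminin-332, stood at 96.5, 121 and 133 FPKM, lowest in library a. LAMA3, another chain, stood at a mean of 35.3. ITGA6 (48.2 ± 3.07) and ITGB4 (46.1 ± 12.9) encode the integrin of the hemidesmosome and did not differ beyond their spread.

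The 2 genes classed as transcription factors in the basal list were the low members among those expressed. TP63 (gene 8626, chromosome 3, 189596746 to 189897279, plus strand) stood at 4.49, 4.50 and 3.52 FPKM (4.17 ± 0.564), from 1851, 2259 and 1627 counts. The table has 1 value for the whole gene, which holds both the TA and the deltaN forms. SNAI2, a repressor of the Snail family, stood at 3.06, 3.88 and 5.19. S100A2, a calcium-binding protein of basal keratinocytes, stood at 912, 1023 and 882 FPKM, TRIM29, a basal epithelial protein, at 123, 136 and 99.3, and CDH3, P-cadherin, at 70.8, 66.1 and 61.7. CD44, the hyaluronan receptor, reached a mean of 104. The basal member that was not called expressed was MME, the surface peptidase CD10, at 0.643 FPKM.

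Of 12 contractile genes of myoepithelial cells 6 were expressed (50%, close to the 49.6% of all protein-coding genes), led by TPM2, a tropomyosin, at 105, 117 and 140 FPKM. ACTA2, smooth muscle actin, stood at 3.62, 7.30 and 10.4, lowest in library a, and TAGLN, transgelin, at 3.73, 2.92 and 3.87. The 4 genes CNN1, MYH11, ACTG2 and LMOD1, which are known from differentiated smooth muscle, had 0 counts in every library, and MYLK, myosin light chain kinase, stood at 0.386. TPM2, CALD1, SMTN and TPM1 are also expressed in many cells that are not contractile.

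The luminal list held a group of abundant epithelial genes and a group at or near 0. Of 29 luminal genes 15 were expressed (51.7%, close to the 49.6% of all protein-coding genes), with a median of 2.32 FPKM. Over the expressed members alone the luminal median was 77.7 FPKM, above the basal median of 57.2 on the same basis, so the order of the lists turned. EPCAM, the epithelial adhesion molecule, stood at 166, 159 and 122 FPKM, SLPI, a secreted protease inhibitor, at 266, 234 and 168, and CLDN4, a tight junction claudin, at 139.5, 96.4 and 67.1. In each of these library a was highest and library c lowest. ALDH1A3, an enzyme of retinoic acid synthesis known from luminal progenitors, stood at 84.6, 72.2 and 76.5. The median of the 17 surface and secreted members was 2.32 FPKM, and 9 of them were expressed.

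Hormone receptors and their partners were low or absent. ESR1, the oestrogen receptor, stood at 0.114 FPKM. PGR, the progesterone receptor, and ELF5, a factor of milk-producing cells, were silent, as were KIT, PROM1, TFF1, TFF3 and ANKRD30A. GATA3, the factor that specifies luminal cells, stood at 6.56, 6.92 and 5.88 FPKM, above TP63 in every library. In counts, which are not scaled by length, the order was the reverse. GATA3 had 1282, 1646 and 1290 counts, fewer than TP63 in every library, so their order depends on the length correction. FOXA1, a pioneer factor for the oestrogen receptor, stood at a mean of 2.94. PRLR, the prolactin receptor, reached 0.00154. In the milk list WFDC2, a secreted protease inhibitor, and XDH, xanthine oxidase, were expressed at 8.32 ± 3.68 and 4.45 ± 0.819, and CSN1S1, CSN2, CSN3, LALBA and BTN1A1 were silent in 3 of 3 libraries. These are bulk libraries, so fewer cells of a type and less RNA per cell cannot be told apart, and whether basal and luminal keratins share a cell was not measured.

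**Figure D3:**
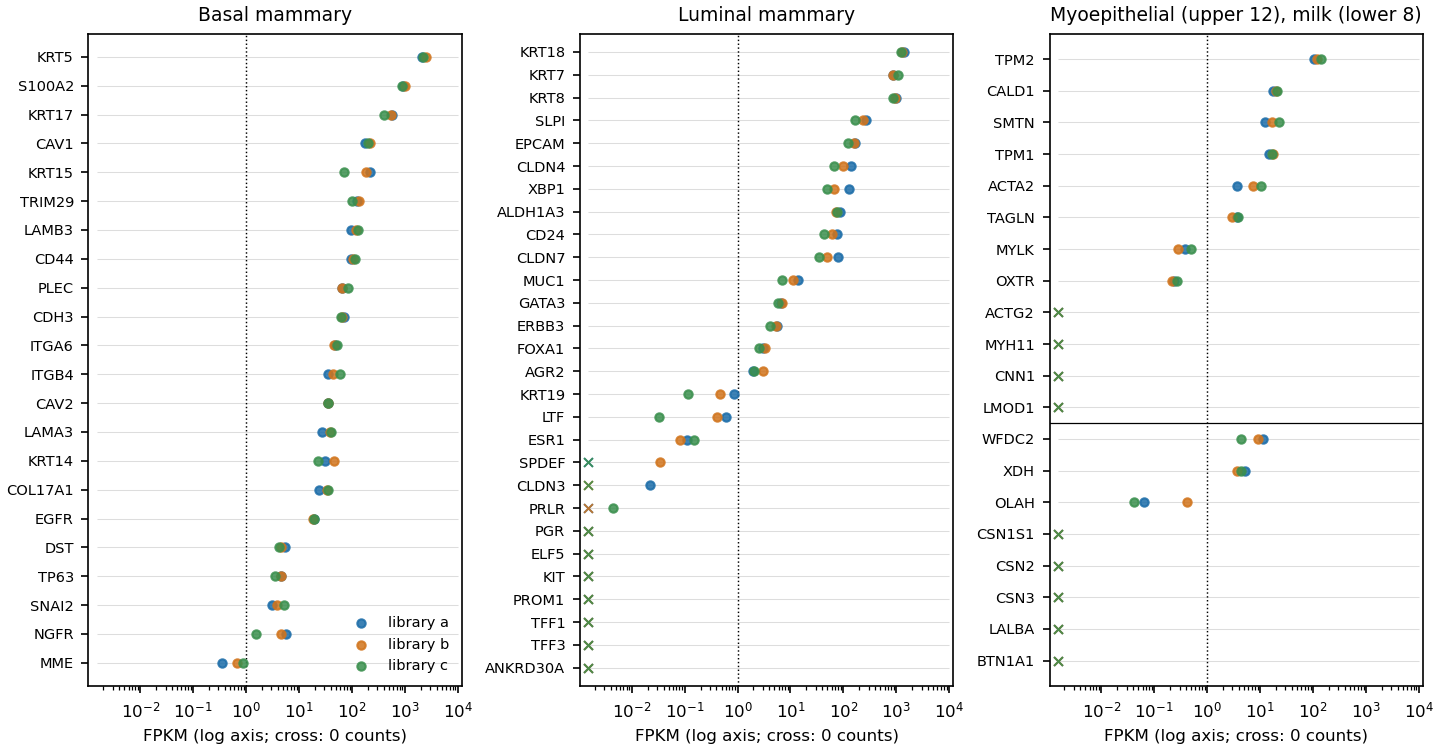
FPKM (log axis) of genes of the basal, luminal, myoepithelial and milk lists, 1 point per library, with crosses at the left edge for 0 counts and a dotted line at 1 FPKM. Shown are 22 of 23 basal and 28 of 29 luminal genes. The basal genes shown lie above the line except MME, while 13 of the luminal genes shown, all milk caseins and 6 of the 12 contractile genes lie at least in part below it.

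Markers of other cell types were mostly at or near 0. In the leukocyte list 2 of 12 were expressed (16.7%, against 49.6% of all protein-coding genes), CD14 at 24.8, 35.3 and 26.6 FPKM and CD68 at 6.66. PTPRC, CD3E, CD3D, MS4A1, LYZ and TYROBP were silent. The summed level of this list ranged from 30.2 to 41.2 FPKM over the libraries. Among endothelial genes 0 of 8 were expressed and KDR, ERG and EMCN were silent (summed 0.453 to 0.932). Fibroblast genes had 3 of 10, namely FBLN1, a matrix protein (37.2, 46.2 and 46.6), FAP (2.61) and COL1A1 (2.53), while COL1A2 was silent and PDGFRA stood at 0.00162 (summed 41.6 to 53.7). Adipocyte, melanocyte, muscle and red cell, and germline lists had 0 of 6, 0 of 5, 0 of 8 and 0 of 10 expressed. MBP was the 1 expressed member of 8 neuron and glia genes (5.38), and SERPINA1 the 1 of 7 hepatocyte genes (7.72), with ALB, APOB and TTR silent.

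Genes of epithelial adhesion and genes of mesenchymal transition were expressed in the same libraries. Of 41 junction genes 27 were expressed (65.9%, against 49.6% of all protein-coding genes). CDH1, E-cadherin, stood at 56.7, 42.4 and 30.8 FPKM. VIM, vimentin, stood at 180.2, 369.97 and 620.2. So CDH1 was highest and VIM lowest in library a, and the reverse held in library c. The claudin genes CLDN3, CLDN5, CLDN6, CLDN8 and CLDN10 lay under 0.1 FPKM, and DSG1, DSC1 and PKP1, desmosome genes of the upper epidermis, were silent. Of 14 transition genes 10 were expressed (71.4%, against 49.6% of all protein-coding genes). TWIST1 stood at 5.48 ± 0.887, SNAI1 at 3.44 ± 1.14 and CDH2, N-cadherin, at 3.32. ZEB1 stood at 0.623 and ZEB2 at 0.190, and PRRX1 was silent.

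Library a and library c differed in further genes of this kind. TGFBI, a matrix protein induced by TGF-beta, stood at 515, 943 and 1264 FPKM, and FN1, fibronectin, at 10.6, 12.3 and 40.05. S100A14, an epithelial calcium-binding protein, stood at 1023, 579 and 331, and KLK5 and KLK7, proteases of the epidermis, at 30.9, 20.1 and 11.7 and at 12.8, 6.55 and 2.74. In all 5 genes library b lay between the others. Ribosomal RNA took 2.15, 1.05 and 1.32% of counts in libraries a, b and c, and its part in these differences was not tested. Within 1 group there is no contrast, so the differences are given as spread.

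Basement membrane and matrix genes had 29 of 41 members expressed (70.7%, against 49.6% of all protein-coding genes). Beside laminin-332 the cells held LAMB1 (33.5 FPKM), LAMA5 (33.3) and LAMC1 (31.5), the chains of laminin-511, and COL4A2, a chain of basement membrane collagen, at 38.1, 42.5 and 54.6. PLAU, the urokinase that activates plasminogen, stood at 113, 161 and 190.0, MMP14, a membrane-bound protease, at 62.0, 69.2 and 70.9, and the inhibitor TIMP1 at 52.1, 66.5 and 78.2. Each was lowest in library a and highest in library c. Of 26 integrin genes 11 were expressed (42.3%), led by ITGB1, the common beta chain (115, 143 and 162). Next were ITGA3 (80.6, 86.7 and 114), which pairs with ITGB1 to bind laminin, and ITGA5 (40.5, 54.7 and 78.3), which pairs with it to bind fibronectin. ITGA8, ITGAD, ITGAX and ITGB3 were silent, and the leukocyte chains ITGAL and ITGAM stood at 0.0244 and 0.121.

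Receptor tyrosine kinases read growth factor signals at the surface, and 18 of 58 were expressed (31.0%, against 49.6% of all protein-coding genes). Ephrin receptors led: EPHA2 stood at 49.4, 48.5 and 38.6 FPKM and EPHB4 at 33.5, 36.1 and 32.3. PTK7, a pseudokinase of planar polarity, stood at 27.0 ± 1.09 and RYK, a Wnt co-receptor, at 22.5 ± 0.483. EGFR, the receptor of the epidermal growth factor in the medium (gene 1956, chromosome 7, 55019017 to 55211628, plus strand), stood at 19.2, 18.1 and 18.9. Its relative ERBB2 stood at 12.9, 12.4 and 12.6, ERBB3 at 5.57, 5.34 and 4.10, and ERBB4 was silent. AXL stood at 10.7, 15.2 and 24.1, the widest spread of the 7 most abundant, with library c highest.

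Insulin is also in the medium, and the 2 receptors that can bind it were listed at different levels. IGF1R stood at 6.03, 6.83 and 4.42 FPKM, while INSR, the insulin receptor, had 23, 0 and 0 counts (0.0137 FPKM). Of the 8 protein-coding neighbours of INSR 4 also had 0 counts in every library, against 27.1% of all protein-coding genes. Other genes at or near 0 had fewer such neighbours, with 2 of 8 for ANXA6, 1 of 8 for CDKN1C and 0 of 8 for SMO. The listed value of INSR falls under the limit given above on zeros, and its cause was not tested. The kinases KIT, RET, MUSK, FLT1, KDR, FLT4, NTRK3 and ROR2 were among the 15 silent members, and PDGFRA and PDGFRB stood at 0.00162 and 0.0295. Downstream, 22 of 24 genes of insulin and EGF signalling were expressed, with the adaptor SHC1 at 72.6 ± 5.68 and HRAS at 60.1 ± 4.62. IRS1, an insulin receptor substrate, stood at 0.394, below IRS2 at 2.77.

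Of 11 EGF family ligands 5 were expressed (45.5%, close to the 49.6% of all protein-coding genes). AREG, amphiregulin, stood at 251.5, 115 and 132 FPKM and HBEGF at 57.9, 29.01 and 23.4, each highest in library a. TGFA, transforming growth factor alpha, stood at 19.2, 17.99 and 18.6, and EREG and EPGN at means of 9.71 and 5.91. EGF itself stood at 0.0146, and the neuregulins NRG1 and NRG2, which bind ERBB3 and ERBB4, at 0.673 and 0.0723.

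Nuclear receptors are transcription factors switched by small ligands, and 18 of 48 were expressed (37.5%). NR2F6, an orphan receptor, stood at 47.4, 49.7 and 47.9 FPKM and ESRRA, the oestrogen-related receptor of energy metabolism, at 45.3, 37.5 and 38.3. RARG, a retinoic acid receptor of epithelia, stood at 21.2 ± 2.40 and did not differ beyond its spread from NR1H2, a liver X receptor (20.5 ± 0.629). VDR, the vitamin D receptor, stood at 17.2 ± 1.22 and RXRA, the common partner of these receptors, at 13.6 ± 0.913. NR3C1, the glucocorticoid receptor, stood at 4.71, 4.40 and 3.86. RARB, NR1I2 and NR0B1 were among the 11 silent members. RXRB was silent too, but lies in the chromosome 6 region where 74.5% of protein-coding genes were listed at 0.

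**Figure D4:**
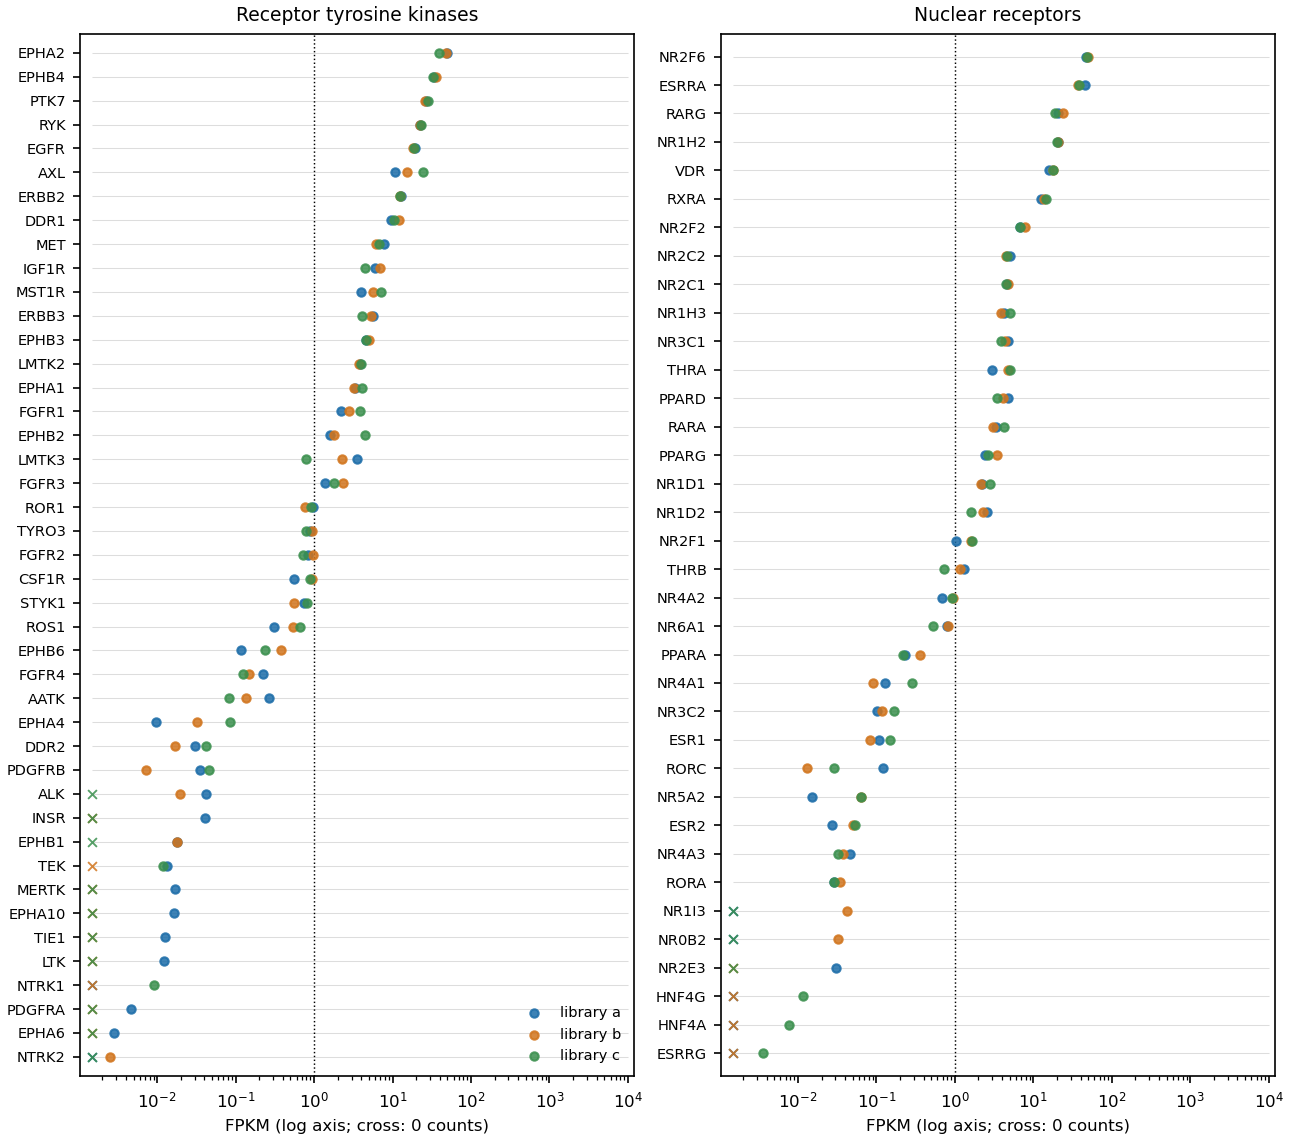
FPKM (log axis) of receptor tyrosine kinases and nuclear receptors with a count in any library, 1 point per library, with crosses at the left edge for 0 counts and a dotted line at 1 FPKM. EPHA2 and NR2F6 lead at 45.5 and 48.4, and ESR1 lies at 0.114.

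Hydrocortisone, a ligand of NR3C1, was in the medium. Of the glucocorticoid response list 12 of 12 genes were expressed (against 49.6% of all protein-coding genes), with a median of 27.3 FPKM. Beside MT2A these were led by MT1X, another metallothionein (64.7, 89.0 and 121), ANGPTL4, a lipoprotein lipase inhibitor (26.6, 38.0 and 99.2), FKBP5, a co-chaperone of the receptor (45.3, 38.3 and 40.2), and TSC22D3, known as GILZ (43.7, 49.6 and 21.9). FKBP5 varied little, while ANGPTL4 was highest and TSC22D3 lowest in library c. The list was chosen with earlier results of these data known. No library without hydrocortisone was analysed here, so what the hormone adds to these levels was not tested. Metallothionein genes are close paralogs, and reads may be split among them.

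Receptors of cytokines of the tumour necrosis factor family were the most abundant among 41 cytokine receptors, of which 27 were expressed (65.9%). TNFRSF12A, the receptor of TWEAK, stood at 197, 182 and 184 FPKM, LTBR, the lymphotoxin receptor, at 87.5, 94.6 and 90.9, and TNFRSF10B, a receptor of TRAIL, at 76.6, 79.7 and 80.7. IL20RB, a chain for interleukins of the skin, stood at 43.2, 45.2 and 40.2. The growth hormone receptor GHR and the myeloid receptors CSF2RA and CSF3R were silent. Of 53 G protein-coupled receptors 20 were expressed (37.7%), among them GPRC5A at 49.1, 46.1 and 38.3. F2RL1, the protease-activated receptor of epithelia, stood at 16.1 ± 3.36. OXTR, the oxytocin receptor of the myoepithelium, stood at 0.242 and CXCR4 at 0.0375.

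Of 14 receptors of TGF-beta and bone morphogenetic proteins 9 were expressed (64.3%) and 2 silent, with a median of 1.90 FPKM. Of 19 Notch and Wnt receptors 10 were expressed (52.6%, close to the 49.6% of all protein-coding genes) and 4 silent, with a median of 1.42. TGFBR2 stood at 39.6, 44.6 and 43.1 FPKM, and TGFBR1, its type I partner, at a mean of 1.44 without passing 1 in every library. NOTCH1 (14.2 ± 0.851) and NOTCH2 (14.2 ± 0.922) did not differ beyond their spread, NOTCH3 stood at 0.131 and NOTCH4 was silent. NOTCH4 lies in the chromosome 6 region of many listed zeros. FZD6, a Frizzled receptor, stood at 26.3 ± 3.70. LGR4, a receptor of R-spondins, stood at 5.09, 23.4 and 18.9, with library a low. LGR5, the stem cell receptor of the same kind, was silent. LRP6, a coreceptor of Wnt proteins, also had 0 counts in every library. So did 3 of its 8 protein-coding neighbours, against 27.1% of all protein-coding genes.

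Among cytokines and growth factors the expressed share was below that of protein-coding genes as a whole. Of 269 genes with that annotation 71 were expressed (26.4%) and 125 silent (46.5%). MIF, a secreted tautomerase, led at 223, 243 and 289 FPKM. CXCL1, a chemokine for neutrophils, stood at 90.0, 119 and 97.1, and IL18 and IL1A, interleukins stored in epithelial cells, at 120.1, 106 and 76.5 and at 73.9, 48.9 and 49.4. Of 41 chemokine genes 7 were expressed (17.1%, against 49.6% of all protein-coding genes), CCL20 being second at 42.8 ± 12.1. The type I interferons had 16 of 17 silent, against 27.1% of all protein-coding genes. Of 19 WNT ligands 3 were expressed, with WNT7B at 6.96 ± 2.43, and of 22 FGF ligands FGF2 alone, at 3.52 ± 0.804.

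Hippo pathway genes were expressed with the exception of AMOT. YAP1, the coactivator (gene 10413, chromosome 11, 102109957 to 102233424, plus strand), stood at 36.2, 39.7 and 34.5 FPKM (36.8 ± 2.63) and was the highest of 22, of which 21 were expressed (95.5%). Its paralog WWTR1, which encodes TAZ, stood at 6.20. Among the DNA-binding partners TEAD4 stood at 22.7, 23.2 and 27.2, TEAD3 at 17.4, 19.9 and 16.3, TEAD1 at 11.96 and TEAD2 at 8.73. The kinases were lower, with STK4 at 7.83, LATS2 at 3.92, LATS1 at 3.21 and STK3 at 2.66. The cofactor MOB1A stood at 26.2 ± 2.52. AMOT, an angiomotin that binds YAP, had 0, 23 and 12 counts, while its relatives AMOTL1 and AMOTL2 stood at 20.3 ± 0.456 and 17.7 ± 4.77. Of the 8 protein-coding neighbours of AMOT 6 had 0 counts in every library, against 27.1% of all protein-coding genes. The listed value of AMOT also falls under the limit on zeros, and its cause was not tested.

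Transcripts of the cell cycle were abundant. MYC, the growth regulator (gene 4609), stood at 79.6, 67.99 and 65.9 FPKM (71.2 ± 7.39), and the related MYCN was silent. All 16 proliferation genes were expressed (against 49.6% of all protein-coding genes), with a median of 62.0 FPKM. CCNB1, cyclin B, stood at 149, 163 and 159.6 and PLK1, a mitotic kinase, at 135, 131 and 155. PCNA, the replication clamp, stood at 131, 127 and 122 and MKI67 at 39.8. CDKN1A, the inhibitor p21, stood at 90.6, 106 and 128 and led the 24 genes of growth control. CDK4 stood at 77.4 ± 12.7 and CCND1, cyclin D1, at 51.5 ± 7.92. TERT, the catalytic subunit of telomerase, stood at 0.0635.

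CDKN2A, which encodes p16 and p14ARF (gene 1029, chromosome 9, 21967752 to 21995324, minus strand), and its neighbour CDKN2B had 0 counts in every library. MCF10A is known to lack the CDKN2A locus. Along chromosome 9, FOCAD stood at 3.99 ± 0.183 FPKM, HACD4 had 0, 0 and 8 counts, and the interferon genes IFNB1, IFNW1 and the IFNA genes were silent. KLHL9, a ubiquitin ligase adaptor that lies among them, was expressed at 1.33, 1.47 and 1.34. Next, MTAP, an enzyme of methionine salvage that is often lost with CDKN2A, had 4, 0 and 14 counts. Beyond CDKN2B, DMRTA1 stood at 0.319, and ELAVL2 (2.23 ± 0.330), TUSC1 (3.03 ± 0.535), CAAP1 (9.01 ± 1.29) and PLAA (9.45 ± 0.734) were expressed. Over 20 to 28 Mb of that chromosome 20 of 37 protein-coding genes were silent (54.1%, against 27.1% of all). Most of these 20 were type I interferon genes, a family in which 16 of 17 were silent. DNA was not measured, so the extent of any loss was not tested.

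Among 928 genes annotated as transcription factors 469 were expressed (50.5%) and 191 silent (20.6%). The annotation is broad: its most abundant member was the enolase ENO1 at 1195 FPKM, and it includes TRIM29 of the basal list. HMGA1, a chromatin protein, stood at 964, 876 and 1156 FPKM, ID1, an inhibitor of differentiation factors, at 177, 146 and 186, and MYBL2, a regulator of mitotic genes, at 161, 153 and 172. SOX15, a factor of stratified epithelia, stood at 86.2, 90.2 and 88.6 and led 19 SOX genes, ahead of SOX9 at 10.1 ± 1.38, while SOX2 was silent. KLF5, a factor of basal epithelial cells, led 18 Kruppel-like factors at 34.6, 25.1 and 21.7. The homeobox clusters differed. Of 11 HOXA genes 7 were expressed (63.6%, against 49.6% of all protein-coding genes), with HOXA5 at 10.1, 14.1 and 11.9. HOXC genes had 4 of 9 (44.4%), with HOXC9 at 5.19 ± 0.162, and HOXB genes 2 of 10 (20%). All 9 HOXD genes were silent, against 27.1% of all protein-coding genes. In the non-coding class 256 of 13010 long RNAs were expressed (1.97%), led by SNHG5 at 260.1, 231 and 182. SNHG29 at a mean of 132 and GAS5 at 114 followed, and MALAT1, an abundant nuclear RNA, stood at 44.5.

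Several families used by other tissues were silent almost throughout, against 27.1% silent among all protein-coding genes. Of 397 olfactory receptors 382 were silent and 0 expressed, of 88 keratin-associated proteins of hair 86 were silent, of 42 beta-defensins 39, and of 27 MAGE genes of the germline 27. Among 21 UDP-glucuronosyltransferases, enzymes of drug clearance, 19 were silent. Their UGT1A genes overlap, with UGT1A1 and UGT1A8 ending at 233773300 and 233773299 of chromosome 2, so reads there are hard to assign to 1 gene. What this adds to their zeros was not tested. The longest stretch of consecutive silent protein-coding genes ran over 61 genes from OR4B1 to OR5AK2 on chromosome 11 (48216810 to 56989843), a cluster of olfactory receptors. Another held 33 hair genes from KRTAP24-1 to KRTAP19-8 on chromosome 21, and one of 13 genes from CSN1S1 to MUC7 on chromosome 4 holds CSN1S1 and CSN3. A stretch of 26 genes from HLA-G to FLOT1 on chromosome 6 is not of that kind, since it holds genes of wide expression and lies in the region of many listed zeros described above.

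Promoters of expressed and silent genes differed in base composition. The RefSeq table of promoters for GRCh38.p14 held the 250 bases upstream of the start for 15444 of 19286 protein-coding genes on chromosomes (80.1%), matched by gene, and the figures are for these. CG pairs were counted against the number that C and G content would give, where a ratio of at least 0.6 marks a CpG-rich promoter. Of 8007 expressed genes 85.03% had such a promoter (95% Wilson interval 84.2 to 85.8), against 54.3% of 3500 genes between the classes and 30.6% of 3937 silent genes (29.1 to 32.0). The median ratio was 0.842 in expressed and 0.340 in silent genes. The silent class can hold listed zeros of the kind described above. It also holds the entry ABCF2-H2BE1, whose promoter has the same ratio, 0.947, as that of the expressed ABCF2. The part of such entries in the silent share was not tested. The TATA motif TATAAA, searched on the gene's strand from 40 to 20 bases before the start, was held by 1.66% of expressed, 7.72% of silent and 3.64% of all promoters. The share did not fall steadily with level. It was 4.41% among 431 genes at an FPKM of at least 100, and 2 of the 25 most abundant genes held the motif. Genes share clusters and promoter types, so they are not independent, and no test was made.

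**Figure D5:**
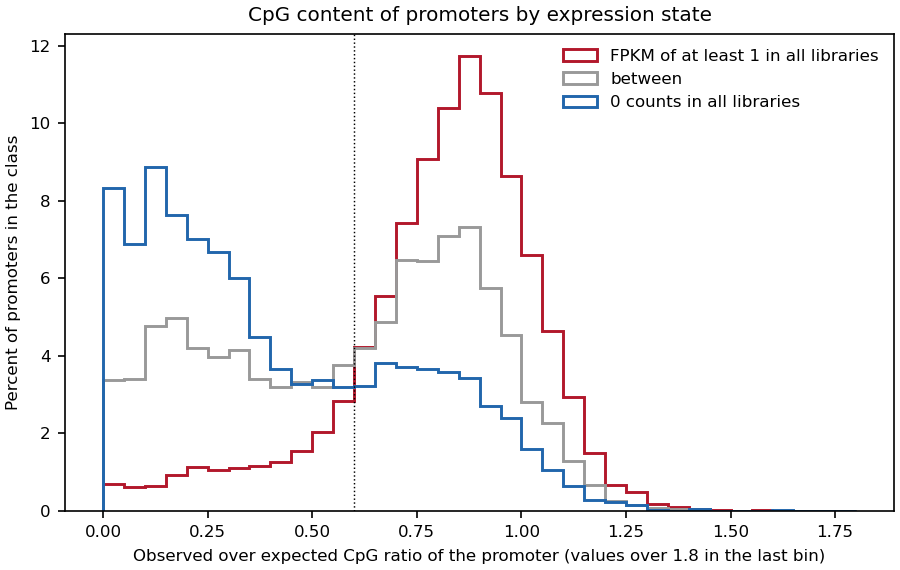
Percent of promoters (y axis) by the observed over expected CpG ratio of the 250 bases upstream of the start (x axis), 1 outline for genes expressed in all libraries, for silent genes and for those between, with a dotted line at a ratio of 0.6. Of expressed genes 85.03% lie right of the line, and of silent genes 30.6%.

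The promoters of 5 genes show the range, each printed 5′ to 3′ on the strand of the gene, from the RefSeq table for GRCh38.p14, with CG pairs and any TATAAA in the window in capitals. MT2A (chr16:56608334-56608583, plus strand) is shown as the most abundant transcript. YAP1 (chr11:102110197-102110446, plus strand) stands for expressed genes with a CpG-rich promoter, and KRT5 (chr12:52520395-52520644, minus strand) for the exception, abundant and CpG-poor. CSN3 (chr4:70238131-70238380, plus strand), kappa-casein, stands for silent genes of another state of the gland, and CDKN2A (chr9:21995325-21995574, minus strand) is a CpG-rich promoter of a gene with 0 counts, whose locus these cells are known to lack. The RefSeq start of YAP1 lies 490 bases inside the gene as the deposited table places it, so the window printed for YAP1 lies within that gene model. Of all 15444 promoters 18.3% have a RefSeq start at least 250 bases inside the gene of the deposited table.
MT2A: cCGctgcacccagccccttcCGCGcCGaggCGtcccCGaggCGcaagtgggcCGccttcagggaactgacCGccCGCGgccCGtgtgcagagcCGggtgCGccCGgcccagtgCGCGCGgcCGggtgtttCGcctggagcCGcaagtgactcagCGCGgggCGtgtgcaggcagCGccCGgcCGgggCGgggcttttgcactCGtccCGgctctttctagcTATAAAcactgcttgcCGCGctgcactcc
YAP1: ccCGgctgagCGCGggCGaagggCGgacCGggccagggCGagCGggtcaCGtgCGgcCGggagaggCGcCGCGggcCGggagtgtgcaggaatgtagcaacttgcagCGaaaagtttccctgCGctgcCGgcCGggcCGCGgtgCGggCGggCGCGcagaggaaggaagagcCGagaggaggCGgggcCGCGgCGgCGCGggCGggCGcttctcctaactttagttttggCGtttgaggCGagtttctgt
KRT5: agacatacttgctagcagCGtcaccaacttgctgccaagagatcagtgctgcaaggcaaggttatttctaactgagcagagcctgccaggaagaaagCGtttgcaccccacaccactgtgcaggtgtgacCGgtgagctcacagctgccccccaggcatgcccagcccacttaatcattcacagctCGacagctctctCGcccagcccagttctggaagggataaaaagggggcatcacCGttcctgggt
CSN3: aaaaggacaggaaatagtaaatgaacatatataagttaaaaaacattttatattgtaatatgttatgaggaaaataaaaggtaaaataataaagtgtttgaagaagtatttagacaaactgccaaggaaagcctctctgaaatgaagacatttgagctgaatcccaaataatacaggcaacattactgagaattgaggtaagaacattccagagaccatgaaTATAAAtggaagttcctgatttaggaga
CDKN2A: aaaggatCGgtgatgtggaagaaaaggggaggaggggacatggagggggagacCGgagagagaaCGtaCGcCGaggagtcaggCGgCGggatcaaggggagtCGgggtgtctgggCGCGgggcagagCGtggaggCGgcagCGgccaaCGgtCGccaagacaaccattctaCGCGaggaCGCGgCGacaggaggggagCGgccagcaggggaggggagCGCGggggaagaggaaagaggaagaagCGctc

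The MT2A promoter held 32 CG pairs and TATAAA starting 29 bases before the transcript. It also held 7 matches to the core of the metal response element, TGCACNC or TGCGCNC, counted on both strands with overlaps. At least 1 match was found in 29.6% of all 15444 promoters and at least 4 in 0.440%. The YAP1 promoter held 36 CG pairs (ratio 1.196) and KRT5, the 14th most abundant entry, held 6 (ratio 0.309). CSN3 held 0 CG pairs and TATAAA at 28 bases before the start. CDKN2A held 24 CG pairs (ratio 1.08) and 0 counts. A match is a match of letters, not evidence of binding.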

How the data were processed

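Poly(A) RNA of MCF10A cells was made into stranded libraries and sequenced in pairs, per the labels' protocols. Per the submitters' processing notes, the tools were HISAT2, StringTie, cutadapt, FastQC and edgeR, on GRCh38.p13, while versions, roles and settings are not given in the sources used here. The deposited table holds whole-number counts per gene, unscaled by the authors, and FPKM made by the authors, with an FPKM of 0.0001 for every gene at 0 counts. It has 24 columns of values for 12 libraries, of which the 6 of control siRNA with DMSO were used and the 18 of the other groups were not.

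Positions are those of the table. RefSeq gene types were matched by gene ID for 37197 of 46931 entries. Levels are means ± SD over 3 libraries, computed with Python 3.11.15, numpy 2.4.6 and pandas 2.3.3, and figures with matplotlib 3.10.9. The levels script was tested on simulated data with 200 genes set to known states. Total counts per library, from 55975525 to 67953633, set the floor of 3 counts, which covers counting error only. No test between groups was made, since 1 group is described.

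KRT5, TP63, YAP1 and MYC were always named, with the 25 most abundant genes outside ribosomal RNA, up to 6 of the most abundant members of each of 37 lists and 29 families, members at 0 or under an FPKM of 0.1, the 9p21 genes, up to 10 of each annotated class and up to 6 of the most variable genes. Further genes of these lists, and genes listed at 0 against their known use, were named after their values were seen. The members and lists were chosen with earlier results of these data known. A few members are counted in their lists but not reported here by name. Thresholds, units and each library were varied as alternatives.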

Additional observations from a re-analysis of the deposited data

How the results depend on the processing

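No paired analysis was possible because 1 group is described and its values come from no test between groups. The number of expressed genes, 10688, ranged from 9189 at an FPKM of 2 to 12234 at a CPM of 1, and from 10861 to 10909 with 1 library left out. Receptor tyrosine kinases ranged from 16 to 25 and nuclear receptors from 16 to 23 over the same settings, and silent entries rose from 24578 to 25840 when up to 3 counts were allowed. These counts stayed within 1.5 times of those reported. Shares and medians moved with their scale. The top 100 genes held 22.5% of counts, and 34.9% of FPKM without ribosomal RNA. Ribosomal protein genes held 8.03% of counts, and 16.8% of FPKM without ribosomal RNA. The basal median became 116.3 on the TPM scale and 57.2 FPKM over expressed members, and the luminal median became 5.60 TPM and 77.7 FPKM over expressed members. These TPM values differ by the factor of 2.40 to 2.42 that rescales each library. CpG-rich promoters rose to 87.0% among genes at an FPKM of at least 5. With 1 library left out, the top 100 share ranged from 36.0 to 36.2%, the ribosomal protein share from 16.2 to 16.6%, the basal median from 46.7 to 51.8 FPKM, the luminal median from 1.99 to 2.51 and the promoter share from 84.8 to 84.9%. Chosen after seeing the data, calling genes in at least 2 of 3 libraries gave 11282, and leaving out positions 29000000 to 34000000 of chromosome 6 gave 26.5% of protein-coding genes on chromosomes silent against 26.9%. Depth limits genes near the floor, where a listed 0 still allows 3 counts.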

Other observations

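Genes that switched between a high level and 0 in different libraries lay side by side in places. SURF4 and SURF2, neighbours on chromosome 9, had 7717, 10420 and 0 counts and 0, 0 and 905 counts. On chromosome 1, SCAMP3 had 2628, 3399 and 0 counts, FAM189B beside it 1670, 1804 and 0, and CLK2 on its other side 0, 1156 and 0. On chromosome 19, HNRNPL had 7478, 3 and 0 counts, NFKBIB 927, 0 and 0 and MRPS12 1930, 2362 and 0. The levels of PSMB3, a proteasome subunit, were 117, 0.490 and 89.2 FPKM, and those of AATF 43.4, 1.05 and 46.9. The cause was not tested.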
